A study of Mus musculus with 3 samples.

Results

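The genes described here encode the proteins of the mitochondrial ribosome. They were chosen by symbol, as every gene whose name starts with Mrpl or Mrps followed by a digit, and 77 of the 24411 tabulated genes met that rule. The libraries came from microglia, the macrophages of brain tissue, of C57BL/6J mice aged 6 to 8 weeks per the labels. The mice were conditional knockouts, called cKO, with loxP sites at both alleles of Mir137, the gene of the microRNA miR-137. They also carried Tmem119-CreERT2, a recombinase that acts after tamoxifen and is driven from a microglial gene. Tamoxifen was injected on 7 days in a row at an age of 7 to 8 weeks, per the series' design text. All 3 libraries were also labelled with a Pu.1 inhibitor, an agent against the transcription factor encoded by Spi1. The 3 replicates form 1 group, so these values are levels in cells with both the deletion and the inhibitor, and no effect of either was measured. No label says that the replicates were separate animals, so their spread may be technical.

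The mitochondrial ribosome translates the few messenger RNAs encoded in mitochondrial DNA, all of which specify subunits of the oxidative phosphorylation complexes. Its ribosomal RNAs come from mitochondrial DNA, whereas all of its proteins are encoded in the nucleus and imported. Part of the proteins have counterparts in the bacterial ribosome, and the rest are found in mitochondria only. Symbols do not always give the subunit: the products of Mrps30 and Mrps18a belong to the large subunit. The product of Mrps36 is now regarded as a component of the alpha-ketoglutarate dehydrogenase complex. With those placements, 50 of the 77 genes belonged to the large subunit, 26 to the small subunit, and Mrps36 was left out of both.

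The libraries held 15710750 to 17180404 estimated counts. Mir137 was at 0 counts in all 3, which checks the label only weakly, since short RNAs are seldom captured in such libraries. Spi1 was at 187, 191 and 182 FPKM. All 9 microglial marker genes examined were detected at 1 FPKM or more in every library, the lowest being Sall1 with a mean of 134 FPKM. FPKM divides CPM, the count scaled to the library total, by effective length in kilobases, where effective length is transcript length less what a fragment occupies. Markers of other cells were also present. All 7 neutrophil markers (0.293 ± 0.013% of counts, mean ± SD, n = 3), all 5 choroid plexus markers (0.834 ± 0.053%) and all 5 endothelial markers (0.167 ± 0.0053%) were detected, against 2.97 ± 0.041% for the microglial list. All 4 astrocyte and all 4 oligodendrocyte markers were also detected. Of 5 neuronal markers only Tubb3 was detected, with Nefl at 0, and none of 4 lymphocyte markers was. Of 3 erythroid markers Hbb-bs, a globin gene, was detected, at 69.0, 30.2 and 50.4 FPKM, and Hba-a1 was at 0, 0 and 29.8 FPKM. The share of the ribosomal protein transcripts that came from such cells was not tested. In bulk RNA, fewer cells of a type and less RNA per cell cannot be told apart.

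All 77 mitochondrial ribosomal protein genes were expressed, most of them at moderate levels. Every one reached at least 1 FPKM in each library. Of these genes, 59 had means of 10 to 50 FPKM, 14 were lower and 4 higher. Their median was 18.5, 18.4 and 18.4 FPKM in replicates 1, 2 and 3. The median over all 11672 genes detected in every library was 13.1 FPKM in each. The lowest and highest members differed by 28.6-fold in FPKM, from Mrpl17 to Mrpl52. Together the 77 genes took 0.132 ± 0.0057% of all counts. Single libraries held 54 to 788 estimated counts per gene.

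**Figure D1:**
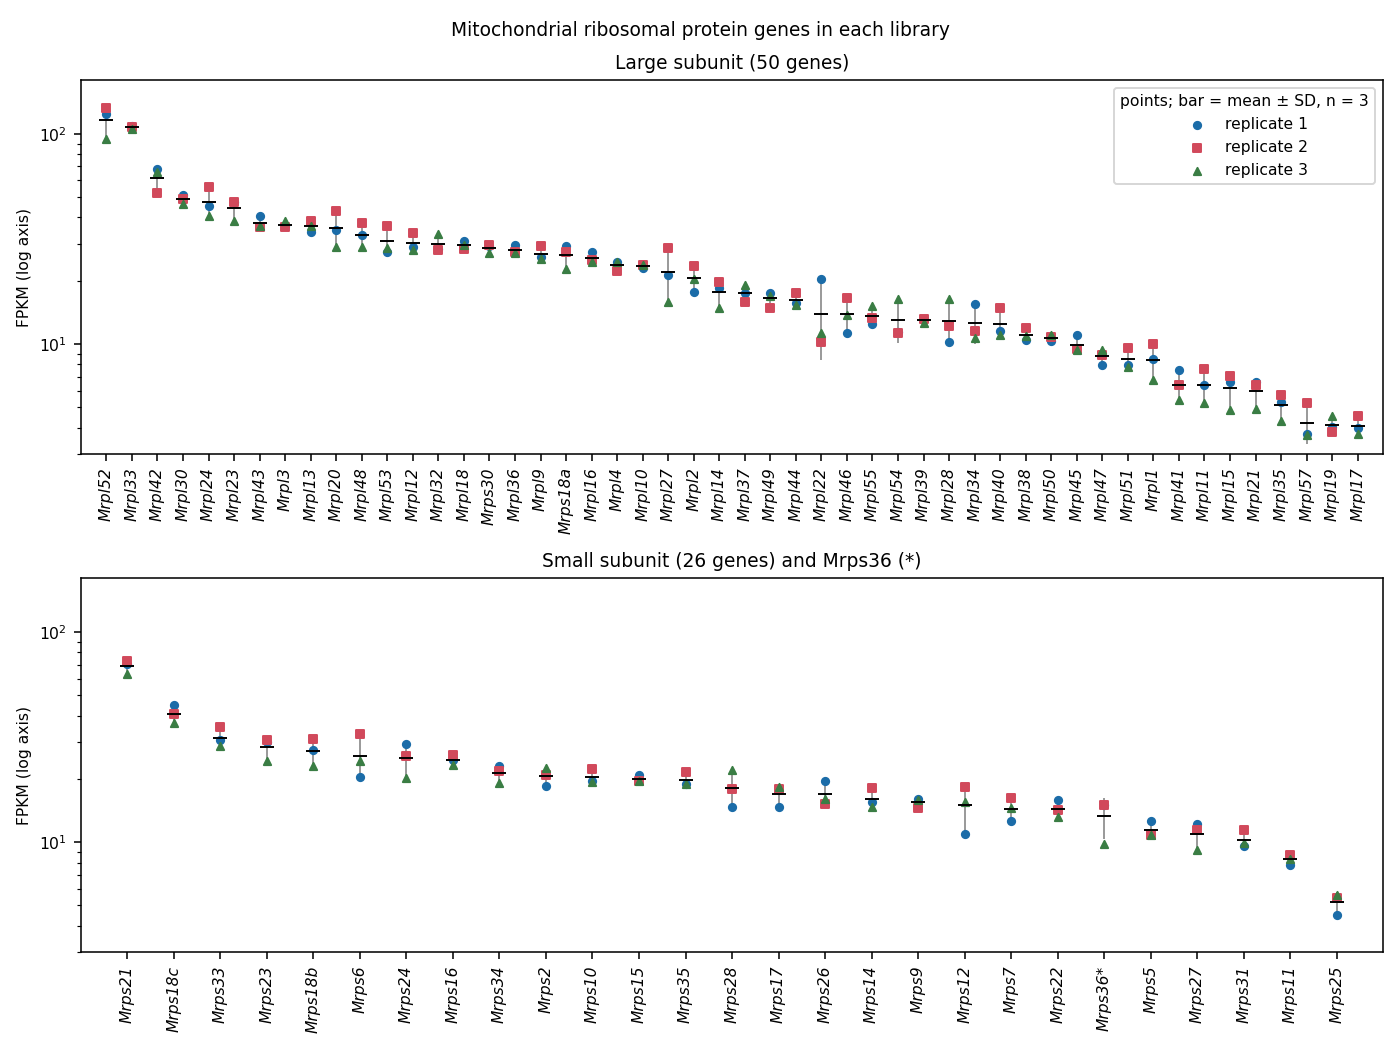
FPKM (log axis) of each of the 77 genes in replicates 1, 2 and 3 (points), with the mean and SD over the 3 libraries, for the large subunit (top) and the small subunit with Mrps36 (bottom). Most genes lie between 10 and 50 FPKM, Mrpl52 and Mrpl33 lie above 100, and Mrpl17, Mrpl19 and Mrpl57 lie lowest.

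The large subunit, which holds the catalytic centre for peptide bond formation, contained both the highest and the lowest member in FPKM. Mrpl52 (GRCm38 chromosome 14, 54426909 to 54429756), a mitochondria-specific protein, was at 124, 132 and 94.3 FPKM in replicates 1, 2 and 3, a mean of 117 ± 20.0. Mrpl33 (chromosome 5, 31596935 to 31664384), the counterpart of bacterial L33, was at 109, 108 and 106 FPKM. The libraries agreed closely for Mrpl33, while Mrpl52 was lower in replicate 3. Next came Mrpl42 at 62.0 ± 8.44, Mrpl30 at 48.8 ± 2.29, Mrpl24 at 47.3 ± 7.77, Mrpl23 at 44.3 ± 5.21 and Mrpl43 at 37.7 ± 2.69 FPKM. Mrpl3 (chromosome 9, 105053239 to 105079888), whose product reaches toward the catalytic centre, was at 36.4, 35.9 and 38.5 FPKM. Mrpl42 lay above Mrpl30 in every library, and from Mrpl30 to Mrpl3 the ranges of neighbours in this order overlapped.

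At the other end were Mrpl17 at 4.09 ± 0.42, Mrpl19 at 4.11 ± 0.37, Mrpl57 at 4.21 ± 0.86 and Mrpl35 at 5.10 ± 0.73 FPKM. Mrpl57, a mitochondria-specific protein, was at 3.74, 5.21 and 3.69 FPKM, a range that spans the means of Mrpl17 and Mrpl19. Mrpl35 was above Mrpl17 and Mrpl57 in every library, at 5.32, 5.69 and 4.28 FPKM, but not above Mrpl19, which was at 4.52 FPKM in replicate 3. Mrpl17 (chromosome 7, 105803206 to 105811099), a protein of the exit tunnel, was at 3.98, 4.55 and 3.74 FPKM.

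Among functional regions of the large subunit, the catalytic centre and the stalk had higher median FPKM than the central protuberance and the exit tunnel in every library. The 5 genes of proteins near the catalytic centre (Mrpl2, Mrpl3, Mrpl4, Mrpl16 and Mrpl27) had a median of 24.7 ± 0.33 FPKM and spanned 20.6 to 36.9 FPKM. The 5 genes of the stalk that recruits translation factors had a median of 23.5 ± 0.55 FPKM. Within the stalk, Mrpl10, its base, was at 22.9, 23.8 and 23.8 FPKM. Mrpl12, the flexible stalk protein, which also binds the mitochondrial RNA polymerase, was at 29.0, 33.9 and 28.1 FPKM. Mrpl11, which also sits at the stalk base, was at 6.35, 7.64 and 5.24 FPKM, below every library of Mrpl10 and Mrpl12. Its effective length was 2601 nt, and per kilobase of the median annotated coding transcript (663 nt) the direction to Mrpl12 turned. There Mrpl11 was at 25.2 ± 4.70, Mrpl10 at 26.9 ± 0.61 and Mrpl12 at 15.4 ± 1.56 CPM. The 8 genes of proteins around the exit tunnel had a median of 12.7 ± 1.52 FPKM, and ranged from Mrpl17 to Mrpl24. Mrpl45, whose product faces the inner membrane at the tunnel's exit, was at 9.93 ± 0.97 FPKM. The 7 genes of the central protuberance, which contacts the small subunit, had a median of 14.7 ± 2.09 FPKM, from Mrpl38 at 11.1 ± 0.79 to Mrpl48 at 33.1 ± 4.30. In TMM-scaled CPM the order of the regions differed, with medians of 21.6 for the catalytic centre, 19.4 for the exit tunnel, 16.7 for the stalk and 10.9 for the central protuberance.

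The small subunit, which binds messenger RNA and decodes it, had its highest FPKM in Mrps21 (chromosome 3, 95862634 to 95871519). This counterpart of bacterial S21 was at 70.3, 73.2 and 62.9 FPKM, above all other small-subunit genes in every library. Mrps18c followed at 40.9 ± 4.10, then Mrps33 at 31.5 ± 3.35, Mrps23 at 28.3 ± 3.43, Mrps18b at 27.1 ± 3.94 and Mrps6 at 25.8 ± 6.29 FPKM. The lowest were Mrps25 (chromosome 6, 92169525 to 92184033) at 4.51, 5.42 and 5.62 FPKM, then Mrps11 at 8.28 ± 0.47, Mrps31 at 10.3 ± 0.98 and Mrps27, an RNA-binding member, at 10.9 ± 1.58. In CPM the order of Mrps21 and Mrps25 turned, at 8.71 ± 0.62 and 30.0 ± 3.40. Per kilobase of the median annotated coding transcript, Mrps21 was at 21.5 ± 1.53, Mrps23 at 44.4 ± 5.18 and Mrps25 at 4.94 ± 0.56 CPM. Mrps12, a core protein of the decoding site, was at 10.96, 18.4 and 15.6 FPKM, and its lowest library stood well apart from its highest. Mrps36 was at 15.0, 15.0 and 9.85 FPKM, low in replicate 3.

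Mammals have a trio of relatives of bacterial ribosomal protein S18, and all were expressed. Mrps18c, the member that takes the place of S18 in the small subunit, was highest at 45.1, 40.6 and 37.0 FPKM. Mrps18b, elsewhere in the small subunit, was at 27.4, 30.9 and 23.0 FPKM, and Mrps18a, in the large subunit, at 29.1, 27.3 and 22.7 FPKM. In every library Mrps18c exceeded both others, and the ranges of Mrps18a and Mrps18b overlapped. This order held with effective lengths only, that of Mrps18c being 221 nt. Per kilobase of the median annotated coding transcript, Mrps18b was at 26.1 ± 3.76, Mrps18a at 20.4 ± 2.54 and Mrps18c at 14.2 ± 1.44 CPM. In CPM, which does not divide by length, Mrps18b was at 20.9 ± 3.02, Mrps18a at 15.4 ± 1.91 and Mrps18c at 9.04 ± 0.92. Mrps30, the other large-subunit protein with a small-subunit name, was at 29.1, 29.6 and 27.1 FPKM.

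The 2 subunits were close to each other in level. Taking the median over genes of log2(FPKM + 1) as the level of a list, the large subunit stood at 4.23 ± 0.08 and the small subunit at 4.31 ± 0.01. The difference within a library was -0.05, -0.03 and -0.18 in replicates 1, 2 and 3, or -0.09 ± 0.08 for large minus small. In CPM the direction turned, to 0.27, and with annotated in place of effective lengths it was 0.14, so the data set no order between the subunits. Members with a bacterial counterpart (46 genes) had a level of 4.42 ± 0.06 and mitochondria-specific members (30 genes) one of 4.10 ± 0.05. Mrps18a and Mrps18b, although relatives of bacterial S18, were placed with the mitochondria-specific members. The difference was -0.32 ± 0.11 for mitochondria-specific minus bacterial-type, negative in all 3 libraries. In CPM it was 0.10, and with annotated lengths -0.22.

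In FPKM, members with shorter effective lengths stood higher. The 20 members with effective lengths under 500 nt had a median of 27.7 ± 2.62 FPKM, the 27 of 500 to 1000 nt 20.9 ± 1.44, the 20 of 1000 to 2000 nt 15.9 ± 0.21, and the 10 of at least 2000 nt 5.63 ± 0.52. Of the 10 lowest members, 8 were of at least 2000 nt. Across the 77 genes, Pearson's r of log2 effective length was -0.73 with log2 FPKM and 0.48 with log2 CPM. Over all 11672 detected genes the corresponding values were -0.24 and 0.35. These are descriptions across genes of the same libraries, and FPKM holds effective length in its denominator.

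The order therefore changed when length was left aside. Mrpl3 was highest in CPM at 46.1 ± 1.81, followed by Mrps30 at 37.4 ± 1.69, Mrps2 at 37.1 ± 3.55 and Mrpl9 at 35.5 ± 2.57. Mrpl52, first in FPKM, was at 15.4 ± 2.54 CPM, close to the members' median of 15.5. Mrpl17, last in FPKM, was at 26.3 ± 2.69 CPM. The lowest in CPM were Mrpl54 at 3.98 ± 0.89, Mrpl21 at 4.24 ± 0.66 and Mrpl34 at 4.59 ± 0.93. The spread of members shrank from 28.6-fold in FPKM to 11.6-fold in CPM.

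**Figure D2:**
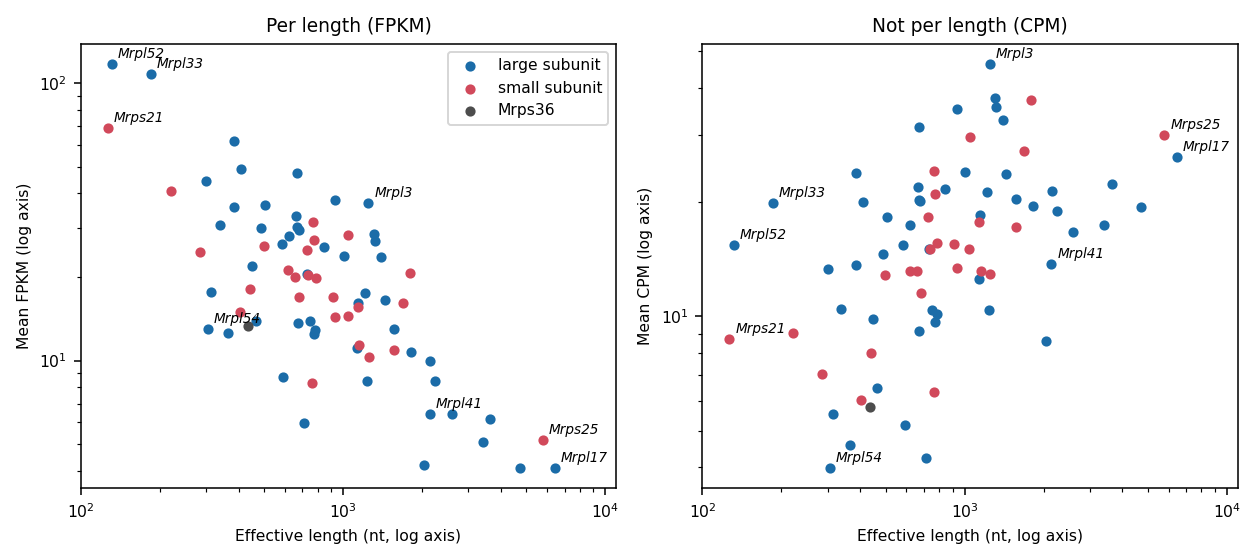
Mean FPKM (left) and mean CPM (right) of the 77 genes against effective length in nt, all on log axes, coloured by subunit. FPKM falls with length (r = -0.73), from Mrpl52, Mrps21 and Mrpl33 at the short end to Mrpl17 and Mrps25 at the long end, while CPM rises with it (r = 0.48).

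For 76 of the 77 members the effective length lay within the longest annotated transcript. Mrpl17 had an effective length of 6431 nt, and its longest transcript in GENCODE M21 was 7300 nt, although the median of its coding transcripts was 743.5 nt. Divided by that median length, Mrpl17 ranked 5 among the members, with 35.4 ± 3.62 CPM per kilobase. Mrps25 (5784 nt, longest transcript 6073 nt) and Mrpl19 (4721 nt, longest transcript 5000 nt) have no shorter coding transcript annotated. Mrpl41 was the exception: its effective length of 2142 nt exceeded its longest GENCODE transcript of 776 nt. Its counts of 275.47, 213.67 and 189.08 were also not whole. Mrpl41, Mrpl24, Mrpl19 and Mrps25 were the only members (4 of 77) with counts that were not whole, which arise where a read is divided between genes. At the short end, Mrps21 had 127 nt and Mrpl52 132 nt, far below their longest annotated transcripts of 488 and 856 nt, and their FPKM moves most with the fragment length assumed. By annotated length the highest members were Mrps23 at 44.4 ± 5.18, Mrpl33 at 41.6 ± 0.68 and Mrpl52 at 36.8 ± 6.08 CPM per kilobase.

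Subunits of the same ribosome that carry other symbols were at comparable levels. All 6 were detected, with a median of 19.3 ± 0.24 FPKM. Chchd1, a small-subunit protein, was at 40.2 ± 7.17 FPKM. Ict1, the large-subunit peptidyl-tRNA hydrolase also called Mrpl58, was at 32.5 ± 3.17, and Aurkaip1 at 25.2 ± 2.39. Ptcd3, an RNA-binding small-subunit protein, was at 13.5 ± 2.09, Gadd45gip1 at 9.86 ± 1.29, and Dap3, a GTP-binding small-subunit protein, at 5.84 ± 0.31 FPKM. Dap3 had an effective length of 4342 nt.

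The machinery that builds and serves the mitochondrial ribosome was lower per length. Of 23 assembly factors 22 were detected, at a median of 9.14 ± 0.26 FPKM, with Mpv17l2 at 24.8 ± 3.49 and Malsu1, which keeps the subunits apart during assembly, at 23.1 ± 3.51. The endonuclease gene Ybey was lowest at 0.85 ± 0.07 FPKM. All 15 genes of translation factors and related proteins were detected, at 8.73 ± 1.93 FPKM. Slirp, which stabilises mitochondrial messenger RNA, was at 60.1 ± 15.3 FPKM, with an effective length of 138 nt. Oxa1l, the insertase that receives new proteins, was at 33.0 ± 2.32 and the release factor gene Mtrf1l at 3.07 ± 0.61 FPKM. In CPM the order of these genes differed, with Oxa1l at 74.4 ± 5.19, Slirp at 8.30 ± 2.02 and Mtrf1l at 7.17 ± 1.42. All 20 genes for charging mitochondrial transfer RNA were detected, at 6.53 ± 0.15 FPKM. Lars2 was highest and uneven between libraries at 37.0 ± 11.4, Gatc was at 24.4 ± 0.78 and Ears2 lowest at 1.44 ± 0.015 FPKM.

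The level of the ribosomal proteins exceeded that of the assembly factors by 0.94 ± 0.04, the translation factors by 1.02 ± 0.31 and the charging genes by 1.38 ± 0.03 log2 units, in 3 of 3 libraries each. These gaps depended on the scale. In CPM they were 0.16, -0.43 and 0.25, and with annotated lengths 0.56, 0.19 and 0.88. The gap of 0.46 ± 0.01 over all detected genes was -0.98 in CPM and -0.16 with annotated lengths.

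Genes that express and copy mitochondrial DNA had a median of 11.3 ± 0.82 FPKM (9 of 9 detected), with the polymerase gene Polg at 17.2, 14.2 and 16.6, the DNA-binding protein gene Ssbp1 at 15.7 ± 1.61 and Polg2 at 4.75 ± 0.70 FPKM. Among 9 regulators of mitochondrial biogenesis 7 were detected. The transcription factor genes Yy1 and Myc were at 46.6 ± 1.84 and 31.1 ± 1.07 FPKM. The coactivator gene Ppargc1a was at 0.75 ± 0.02 FPKM and its relative Ppargc1b at 0.69, 0.98 and 1.14 FPKM, so neither reached 1 FPKM in every library.

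Cytosolic ribosomal proteins and oxidative phosphorylation subunits were far more abundant. The 83 cytosolic genes, paralogs included, had a median of 624 ± 44.3 FPKM, led by Rplp1 at 3754 ± 370.5 and Rpl38 at 2373 ± 323.6, with Rpl10l listed at 0. The difference of the mitochondrial list to them was -5.01 ± 0.10 log2 units, or -3.77 in CPM. The 76 nuclear genes of oxidative phosphorylation, whose products assemble with those the mitochondrial ribosome makes, had a median of 87.4 ± 5.80 FPKM, led by Cox4i1 at 367 ± 36.8 and Atp5l at 302 ± 22.3, with Ndufs5 listed at 0. The difference to them was -2.18 ± 0.09 log2 units, or -1.28 in CPM. Neither direction turned under any setting tried. Mitochondrially encoded transcripts were not analysed here.

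**Figure D3:**
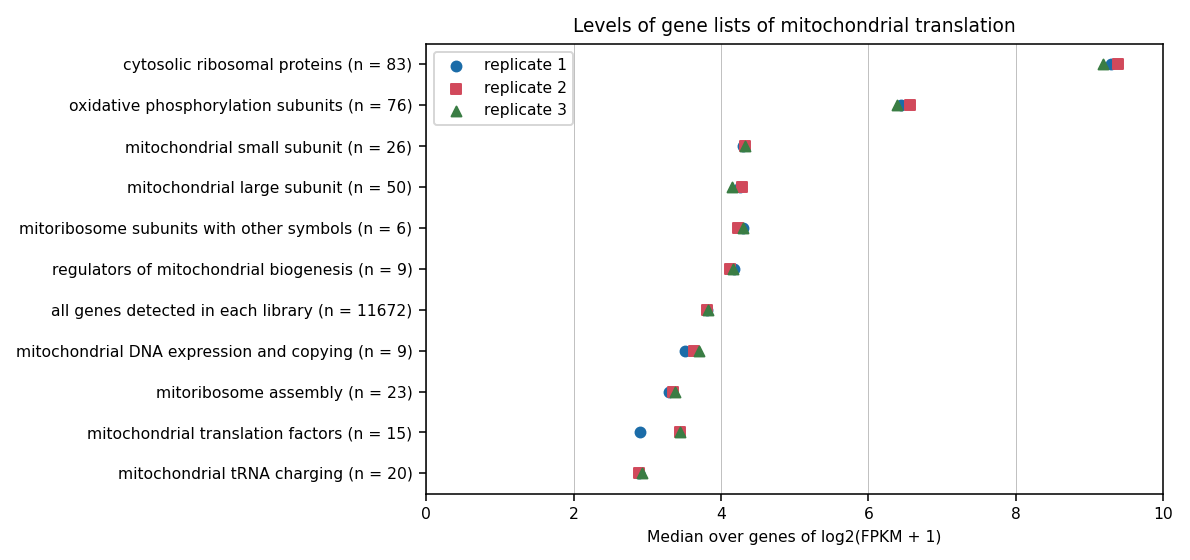
Level of each gene list, as the median over its genes of log2(FPKM + 1), in replicates 1, 2 and 3. The mitochondrial subunits lie near 4.3, below the cytosolic ribosomal proteins at 9.29 and the oxidative phosphorylation subunits at 6.46, and above the assembly, translation factor and charging lists in all 3 libraries.

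With all 3 libraries, members varied between libraries about as often as other genes. For this, counts were scaled to CPM by the trimmed mean of M-values (TMM). A chi-square test of homogeneity asked for each gene whether its 3 counts differed by more than counting error, with Benjamini-Hochberg adjustment over all genes. It called 33 of 77 members (42.9%), against a background of 41.4% of all genes that passed the filter on low counts and 36.8% of those in the same range of mean counts. At an unadjusted p under 0.05 there were 43 members, but the share of all genes at that cut was not computed, so this count has no background. The test compares libraries, not conditions. Without replicate 1, 2 or 3 it called 22, 13 and 12 members (28.6, 16.9 and 15.6%), and 28.2, 18.6 and 23.5% of all genes. Without replicate 3 the share of members was thus lower than that of all genes. The median biological coefficient of variation (edgeR, tagwise) was 0.108 for members and 0.0866 for all genes. The highest library was more than 1.5-fold the lowest for 7 members (9.09%), against 14.7% of all genes tested. Neither measure was computed for genes in the same range of mean counts.

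The member that differed most between libraries was Mrpl22, an exit tunnel protein (chromosome 11, 58171661 to 58179565). It had 162, 74 and 86 counts, or 9.44, 4.72 and 5.26 TMM-scaled CPM (adjusted p = 8.3e-07, chi-square test). Replicate 1 stood apart, and without it the adjusted p was 0.664. The next 4 were Mrpl27, Mrpl24, Mrps6 and Mrpl1, each highest in replicate 2. Mrpl27, near the catalytic centre, was at 9.56, 12.9 and 7.15 CPM (adjusted p = 1.9e-05), and Mrpl24, at the exit tunnel, at 30.5, 37.3 and 27.1 CPM (adjusted p = 1.9e-05). Mrps6 was at 10.3, 16.3 and 12.1 CPM (adjusted p = 5.2e-05) and Mrpl1 at 18.8, 22.5 and 15.6 CPM (adjusted p = 0.0003). Without replicate 2 the adjusted p of these 4 was 0.0728, 0.199, 0.263 and 0.0959, and without replicate 3 that of Mrpl1 was 0.0714. At the steady end, Mrpl33 had a coefficient of variation over the libraries of 1.69%, Mrpl10 2.27% and Mrpl39 2.76%.

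Members also leaned the same way. Replicate 2 held the highest TMM-scaled value for 38 of 77 members (49.4%, against 35.9% of all genes tested), and replicate 3 the lowest for 44 (57.1%, against 34.1%). The median deviation of members from their own mean was 0.003, 0.07 and -0.07 log2 units in replicates 1, 2 and 3. Both subunits showed it: for the small subunit it was -0.02, 0.07 and -0.06, and for the large subunit 0.003, 0.05 and -0.07. Other short genes did likewise. Over all tested genes with effective lengths under 500 nt the deviations were -0.03, 0.11 and -0.09, and over those of at least 2000 nt 0.007, -0.02 and 0.02. The 10 members of at least 2000 nt, however, were at 0.003, 0.15 and -0.19. Cytosolic ribosomal proteins were at -0.03, 0.14 and -0.11, and oxidative phosphorylation subunits at -0.04, 0.12 and -0.07. Neutrophil markers took 0.286, 0.308 and 0.286% of counts, choroid plexus markers 0.791, 0.817 and 0.893%, and endothelial markers 0.162, 0.173 and 0.167% in replicates 1, 2 and 3. Oligodendrocyte markers took 0.0737, 0.0771 and 0.0662%, astrocyte markers 0.0445, 0.0450 and 0.0425%, and microglial markers 2.988, 2.999 and 2.924%. The oligodendrocyte, astrocyte and microglial lists were each highest in replicate 2 and lowest in replicate 3, as the members were. Erythroid markers took 0.0026, 0.0013 and 0.0028%. The part of length or of other cells in the lean was not tested.

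**Figure D4:**
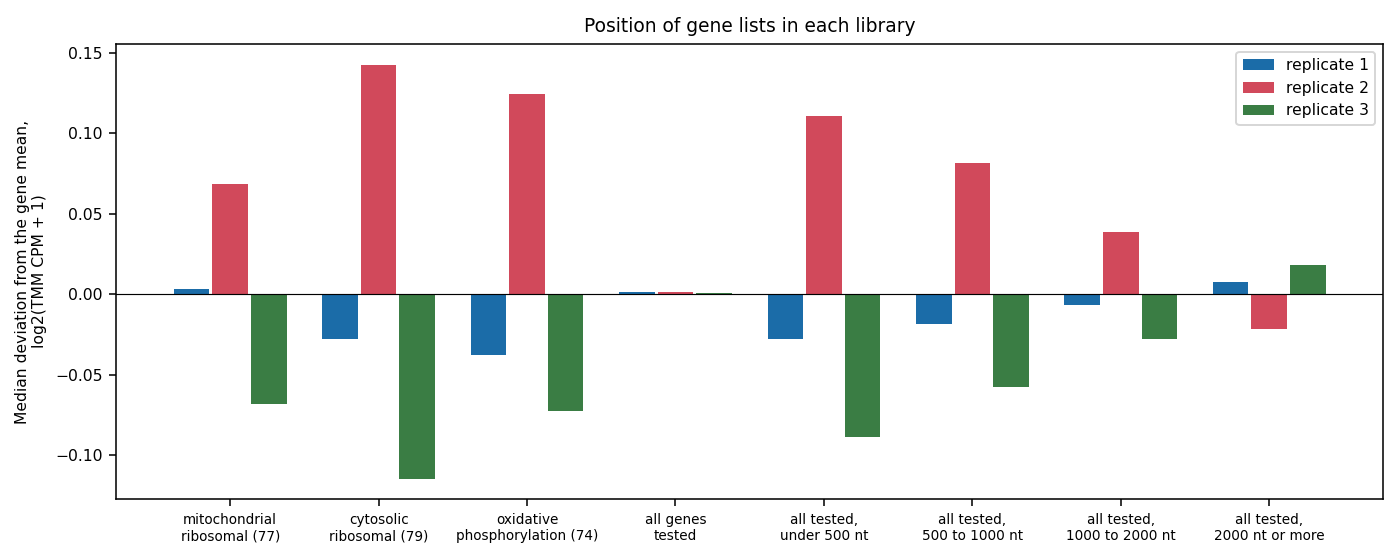
Median over genes of the deviation of log2(TMM CPM + 1) from the gene's mean over the libraries, for each replicate (bars) and gene list, with all tested genes split by effective length. Mitochondrial ribosomal protein genes are highest in replicate 2 (0.07) and lowest in replicate 3 (-0.07), as are the cytosolic list, the oxidative phosphorylation list and all tested genes under 2000 nt.

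In the genome the members were scattered: each matched 1 GENCODE M21 gene of GRCm38, on 17 chromosomes, with at most 10 on one (chromosome 11). A divergent arrangement was common. For 18 members (23.4%) another protein-coding gene started within 1000 bases on the opposite strand and ran away from it. That held for 6.79% of all 21951 protein-coding genes and 10.2% of the 11029 detected ones. The starts lay a median of 82 bases apart.

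In FPKM, levels within these pairs ranged from close to far apart. Of the 18 neighbours 16 were detected, and 14 were lower in FPKM than the member. Mrps12 was paired with Sars2, which charges mitochondrial transfer RNA with serine, 172 bases away. Sars2 was at 5.04, 4.50 and 2.81 FPKM, under every library of Mrps12. Mrps18c lay 29 bases from Helq, a DNA helicase gene, at 1.88, 1.83 and 2.15 FPKM. Mrpl40 at 12.5 ± 2.07 FPKM and its neighbour Hira, a histone chaperone gene, at 11.8 ± 1.71 overlapped. In the opposite direction, Mrpl49 lay 59 bases from Fau, which encodes a cytosolic ribosomal protein. Fau was at 853, 964 and 842 FPKM and Mrpl49 at 17.5, 14.9 and 17.0 FPKM. Mrpl32 lay 75 bases from the proteasome gene Psma2, at 110, 123 and 101 FPKM against 28.4, 28.1 and 33.4 FPKM. Across the 18 pairs Spearman's rho between the mean FPKM was 0.10, a description. One pair of members overlapped: Mrpl46 and Mrps11, on opposite strands of chromosome 7, shared 413 bases, and were at 13.9 ± 2.68 and 8.28 ± 0.47 FPKM. In all, 31 members overlap a gene on the opposite strand, and 10 overlap a gene on the same strand, Mrps6 among them. These overlaps are of whole gene spans, introns included, and shared exons were not sought. No source used here gives the strand setting of the counting. Where exons on opposite strands overlap, it is therefore not known whether their reads were told apart. Where exons on the same strand overlap, strand alone would not part the reads.

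**Figure D5:**
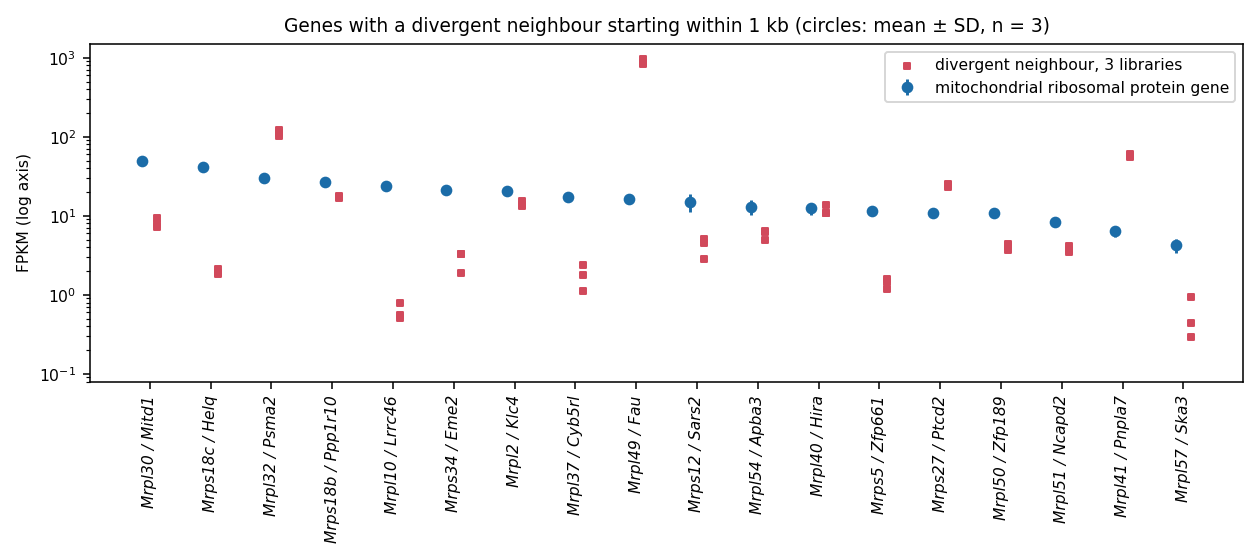
FPKM (log axis) of the 18 members with a divergent protein-coding neighbour that starts within 1000 bases (circles, mean ± SD, n = 3) and of that neighbour in each library (squares). The neighbour is lower in 14 pairs, while Fau, Psma2, Pnpla7 and Ptcd2 exceed their partners.

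RefSeq promoter windows (GRCm38.p6, 250 bases before to 50 after the RefSeq start) were found for 68 of the 77 genes. That start can differ from the GENCODE start, so a window may lie inside the gene span given above. They were searched on both strands for 5 short motifs: ETS proteins, NRF1 and YY1 are known at promoters of mitochondrial genes, Pu.1 is an ETS protein, and TATAAA is the TATA box. The ETS motif CCGGAAGT was in 12 of 68 members (17.6%), 9.26% of 8999 detected genes and 4.31% of all 27025 genes with a window. The Pu.1-type motif GAGGAAGT, which shares its last 6 letters with the ETS motif, was in 1 of 68 (1.47%), 3.99% of detected and 3.69% of all genes. The NRF1 core GCGCATGC was in 8 members (11.8%), 6.02% of detected and 3.05% of all genes. The YY1 core AAGATGGC was in 12 members (17.6%), 5.51% of detected and 3.19% of all genes. In 8 of those 12 it lay 11 to 36 bases after the start, on the strand of the gene. TATAAA was in 5 members (7.35%), 8.67% of detected and 15.7% of all genes. A match describes the sequence and shows no binding. The windows below give examples over the range of FPKM, with the motif in capitals and up to 16 flanking bases. They end no later than the RefSeq start and are written 5′ to 3′ on the strand of the gene. In Mrps18c and Mrpl36 the match is on the other strand and appears as its reverse complement.
Mrpl33, NRF1, chr5:31613923-31613950, plus strand: ccttctaccggaacccGCGCATGCcccg
Mrpl17, NRF1, chr7:105811088-105811114, minus strand: cacgcgccgagttactGCGCATGCgtc
Mrps18c, ETS, chr5:100798586-100798625, plus strand: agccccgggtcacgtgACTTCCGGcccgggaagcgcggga
Mrpl3, ETS, chr9:105053233-105053267, plus strand: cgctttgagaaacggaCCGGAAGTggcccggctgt
Mrpl51, ETS, chr6:125192094-125192133, plus strand: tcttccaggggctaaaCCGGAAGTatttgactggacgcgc
Mrpl36, YY1, chr13:73330963-73331002, plus strand: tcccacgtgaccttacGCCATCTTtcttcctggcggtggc
Mrps10, Pu.1 type, chr17:47369038-47369077, plus strand: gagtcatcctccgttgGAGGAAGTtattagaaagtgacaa
The same NRF1 core thus lies 12 bases before the RefSeq start of Mrpl33 and 11 before that of Mrpl17. Both matches fall inside the GENCODE spans of these genes. Mrpl33 and Mrpl17 were the second highest and the lowest member in FPKM. In CPM they were close, at 19.9 ± 0.33 for Mrpl33 and 26.3 ± 2.69 for Mrpl17. Members with the ETS match ranged from Mrpl52, the highest, to Mrpl51 at 8.44 ± 1.02 FPKM. Mrps10, the only member with the Pu.1-type match, was at 19.5, 22.4 and 19.4 FPKM, near the middle of the members.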

How the data were processed

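RNA sequencing libraries of mouse microglia (3 replicates of 1 group) were analysed. The authors deposited estimated counts per gene, not scaled between libraries, and FPKM per gene. The submitters' processing notes name STAR 2.7.9a, RSEM, DESeq2, GRCm38 and mm10. No source used here gives the annotation, the settings or the strand. The members and lists were chosen with earlier results of these data known. Members given in full were the 8 highest and 4 lowest by FPKM of each symbol series, the 5 lowest p between libraries, and members of defined position. Of other lists the 2 highest and 1 lowest gene were named, and all subunits with other symbols.

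Effective length was recovered as count over FPKM and library total. List levels were medians of log2(FPKM + 1). Counts were rounded, filtered with the default of edgeR 4.0.16 (R 4.3.3), scaled by TMM and tested by chi-square at an adjusted p of 0.05. That step was tried on simulated counts with counting error only, so the trial left out any further spread between real libraries. A count of 0 allows up to 0.175 to 0.191 CPM (3 counts, counting error only). Of the symbols, 12 had become dates and were left out of lists. Lists were matched under older names where the files use them (Ict1, Ftsj2, Rnmtl1, Peo1). Motifs, gene pairs and annotated lengths were chosen after values were seen, and the NRF1 and YY1 cores were shortened after a first search with longer forms. RefSeq lists 6 pseudogenes under the symbols of 4 members (Mrpl23, Mrpl27, Mrpl48 and Mrps36), which may make the counts of those 4 less certain. Copies under other names were not sought, so the other members may have some too.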

Additional observations from a re-analysis of the deposited data

How the results depend on the processing

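No paired analysis was possible because there was 1 group. The level of the members, 4.28, was 4.21 with a pseudocount of 0.1, 4.09 in TMM-scaled CPM, 4.19 with effective lengths of at least 300 nt and 3.86 per annotated length, an alternative added after seeing the data. In TMM-scaled CPM the differences were 0.27 (large minus small subunit), 0.10 (mitochondria-specific minus bacterial-type), -3.77 (against cytosolic ribosomal proteins), -1.28 (oxidative phosphorylation), -0.43 (translation factors), 0.16 (assembly), 0.25 (charging) and -0.98 (all detected genes). Per annotated length they were 0.14 for the subunits and -0.22 for mitochondria-specific minus bacterial-type. For the last 6 in that order they were -4.48, -1.98, 0.19, 0.56, 0.88 and -0.16. With effective lengths of at least 300 nt they were -2.04 (oxidative phosphorylation), 0.85 (assembly), 1.28 (charging) and 0.39 (all detected). With a pseudocount of 0.1 they were 1.00 (assembly), 1.49 (charging) and 0.49 (all detected). CPM leaves out length by construction; the cause of the other shifts was not tested. The share of counts was 0.141% without the 10 genes with most counts. Bonferroni adjustment left 3 members (Mrpl22, Mrpl24 and Mrpl27), or 3.90%, and 1122 of all genes, or 8.47%. Leaving out 1 replicate gave 12 to 22 members (15.6 to 28.6%), against 33 with all 3 libraries. Over all genes then tested it gave 2498 to 3780 calls (18.6 to 28.2%), against 5485. DESeq2 size factors and no filter gave 33 and 32 members (42.9 and 41.6%), against 41.4 and 37.8% of all genes. Depth limits the members with few counts most, Mrpl54 being lowest at 54 to 82.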
